A study of Mus musculus with 6 samples.

Results

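Hedgehog signalling genes and genes of the floor plate, 9 in all, were examined among the 19613 genes measured in embryoid bodies containing motor neurons. Members were chosen by gene name, and all 9 had a row in the table. They were the ligand Shh, the receptor Ptch1, the signal transducer Smo, the ligand-binding antagonist Hhip, the transcription factors Gli1, Gli2 and Gli3, and the floor plate genes Foxa2 and Spon1. The rule uses names and no measured values, although members were chosen with earlier results of these data known. The RNA of 6 cultures was hybridised to mouse exon arrays from Affymetrix, with the cultures numbered as replicates 2, 4, 5, 6, 7 and 8. All 6 form a single group, which received blood fluid from mice of strain B6CBA-Tg(HDexon1)62Gpb/3J, a Huntington's disease model with a transgenic fragment of human huntingtin. The labels call the fluid plasma and the series title calls it serum. Per the methods, donors were male carriers 10 weeks old, before onset of symptoms.

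The cells came from the HBG3 HB9 embryonic stem cell line (spelled HGB3 in the methods), in which a green fluorescent protein reports the motor neuron gene Hb9 (Mnx1). All cultures were grown from this 1 line, and each array reads the mixture of cell types in the embryoid bodies. In such a mixture, fewer cells of a type and less RNA per cell cannot be told apart. Per the methods for these indicator cells, differentiation used 1 μM retinoic acid and 200 ng/mL of the Hedgehog agonist Hh-Ag1.3. After 6 days of differentiation the embryoid bodies were moved to medium with 5% mouse serum for 24 h, and the agonist is named for the differentiation step only. All cultures shared these treatments. Arrays without agonist or with other serum were not analysed here, so the values are levels and not responses.

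In the ventral neural tube, Sonic hedgehog is secreted first by the notochord and then by the floor plate, the strip of cells at the ventral midline. Binding of the ligand to Ptch1 relieves the inhibition of Smo, and Smo then shifts the Gli proteins from repressor to activator forms. Ptch1, Hhip and Gli1 are themselves transcribed in response to the pathway, so the first 2 act as negative feedback and the last as positive feedback. High signal induces Foxa2 and floor plate fate, and intermediate signal induces motor neuron progenitors.

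Windows upstream of the start sites were read for the sequence bound by Gli proteins, since Ptch1, Hhip and Gli1 are transcribed in response to the pathway. Start sites on GRCm38.p6 were available for 6 of the 9 members, Ptch1, Hhip, Smo, Gli2, Gli3 and Foxa2, with 8 windows of 250 bases. Shh, Gli1 and Spon1 had no window, so Gli1 was not read. The motif searched was GACCACCCA, or TGGGTGGTC on the other strand. It was found in 0 of the 8 windows and in 0.225% of all 32851 windows of this length. The closest stretches of Foxa2, Hhip and Ptch1 are shown because these genes are known targets of the pathway. The start sites of the windows shown do not lie at the outer edge of the annotated gene. Another Foxa2 window has its start site at that edge, and its closest stretch differs from the motif at 2 bases. Capitals mark the 9 bases nearest to the motif or its reverse, with 10 bases on each side, all read on the strand of the gene.
Foxa2: tggggaggggTGGGAGGTCggctggcgag
Hhip: cgcagccggaGGCCACCCTgggccccggc
Ptch1: ggcgcgagcgGCGGGGGTCtgcgcgcgcc

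The Foxa2 stretch lies at chr2:148045512-148045540 on the minus strand and differs from the motif at 1 base, and 5.79% of all windows hold a stretch at least as close. It was the closest among 3 windows of this gene, so it had more chances than a gene with 1 window. The Hhip stretch lies at chr8:80058150-80058178 on the minus strand and differs at 2 bases, and 51.8% of windows hold a stretch at least as close. The Ptch1 stretch lies at chr13:63565853-63565881 on the minus strand and differs at 3 bases, and 98.6% do. A match of this kind describes the letters of the window and not a site that is bound, and distant enhancers were not read.

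Of the members, 6 stood far above background, and the 3 Gli genes lay close to it. Background was set by the 1032 olfactory receptor (Olfr) genes, which are mainly active in the nose. The 95th percentile of their mean log2 intensities was 7.47, and the 99th percentile was 8.33. The mean of all 9 members was above the first level, as it was for 65.2% of the whole table, and the mean of 6 members was above the second, as it was for 48.6% of the table. Levels below are log2 intensities. Probes differ in affinity between genes, so the order of the members ranks intensities and not transcript amounts. From the highest, this order was Spon1, Shh, Ptch1, Foxa2, Smo, Hhip, Gli3, Gli1 and Gli2. The means of Foxa2 and Smo differed by less than the SD of Foxa2, and their values overlapped between arrays, although Foxa2 was the higher within each of the 6 arrays. Gli1 and Gli2 differed by less than the SD of either gene.

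Among the arrays, Pearson's r over all genes lay between 0.991 and 0.997, with genes as the points. The array that correlated least with the rest was replicate 8, with an average r of 0.992, and it also had the lowest 95th percentile of Olfr genes, at 7.26 against 7.42 to 7.60 in the other arrays. Each member is therefore given in every array, and results were recomputed without each array in turn.

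**Figure D1:**
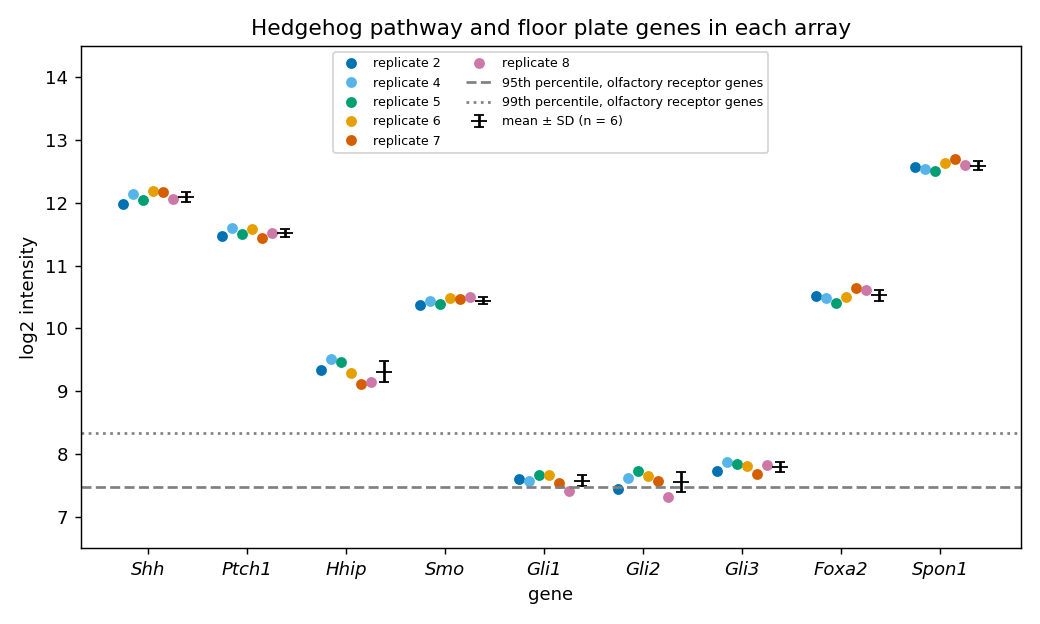
Log2 intensity (vertical axis) of each of the 9 genes (horizontal axis), with 1 point for each of the 6 arrays and the mean ± SD at the right of each set. Dashed and dotted lines are the 95th and 99th percentiles of olfactory receptor genes, at 7.47 and 8.33; 6 genes lie above both lines in every array, and Gli1, Gli2 and Gli3 lie between the lines or, in some arrays, just below both.

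The ligand Shh had log2 intensities of 11.99, 12.14, 12.05, 12.19, 12.18 and 12.06 in replicates 2, 4, 5, 6, 7 and 8. The arrays spanned 1.15-fold, with replicate 2 lowest and replicate 6 highest. The mean of 12.10 ± 0.080 (SD, n = 6) was higher than that of every Olfr gene and of 98.9% of all genes. It exceeded the background of the same arrays by 4.61 ± 0.055 (SE), with an adjusted p of 3.29e-14 in limma's one-sample test.

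This test asks whether the log2 intensity of a gene exceeds the 95th percentile of the Olfr genes of its own array by more than the spread between arrays, with Benjamini-Hochberg adjustment over all 19613 genes. It called 12278 genes, or 62.6% of the table, and 7 of the 9 members. The 7 were Shh, Ptch1, Smo, Hhip, Foxa2, Spon1 and Gli3. With so many genes called, the count says little about the members, and their distance from background is the more informative value.

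Other ligands and the proteins that release them were on a list of 7 genes, of which 6 were matched and 4 had a mean above background. That share was close to the 65.2% of all genes. Ihh, the Indian hedgehog ligand known from cartilage and gut, was at 10.04 ± 0.085 (SD, n = 6), with its lowest value, 9.92, in replicate 8 and its highest, 10.18, in replicate 5. Dhh, the Desert hedgehog ligand known from Schwann and Sertoli cells, was at 7.11 ± 0.17, below background on average. Among the Scube genes, whose secreted products help release the lipid-bearing ligand, Scube3 was at 9.23 ± 0.053 and Scube1 at 8.83 ± 0.048, while Scube2 at 7.45 ± 0.089 was not above background (SD, n = 6). Hhat, which attaches palmitate to the ligand, was the remaining gene above background, at 8.01 ± 0.070.

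The receptor Ptch1 had log2 intensities of 11.47, 11.61, 11.50, 11.58, 11.45 and 11.52 in replicates 2, 4, 5, 6, 7 and 8. Replicate 4 was highest and replicate 7 lowest, and the arrays differed by at most 1.12-fold. Its mean of 11.52 ± 0.063 (SD, n = 6) was above 97.4% of all genes. The excess over background was 4.03 ± 0.060 (SE), with a limma adjusted p of 1.01e-13.

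Smo, the membrane protein through which the pathway and its agonists act, had log2 intensities of 10.38, 10.44, 10.39, 10.48, 10.47 and 10.51 in replicates 2, 4, 5, 6, 7 and 8. Replicates 2 and 5 were lowest and replicate 8 highest. The spread was the smallest among the members, with a mean of 10.45 ± 0.051 (SD, n = 6) and a span of 1.09-fold. Excess over background was 2.96 ± 0.060 (SE), with a limma adjusted p of 8.45e-13. Co-receptors and further receptors were on a list of 6 genes, and all 6 had a mean above background and passed the limma test. Over all genes, these shares were 65.2% and 62.6%. Cdon, a cell surface protein that binds the ligand with Ptch1, was at 10.002 ± 0.097, and the endocytic receptor Lrp2 was at 9.53 ± 0.045 (SD, n = 6). Gas1, a membrane-anchored co-receptor, had the largest SD of this list, at 8.31 ± 0.13.

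Hhip, which binds Hedgehog ligands outside the cell and limits their action, had the largest SD of the members. Its log2 intensities were 9.34, 9.52, 9.47, 9.29, 9.11 and 9.15 in replicates 2, 4, 5, 6, 7 and 8. Replicates 4 and 5 were high and replicates 7 and 8 were low, a span of 1.32-fold. The mean was 9.31 ± 0.16 (SD, n = 6). This SD was above that of 93.3% of the 640 genes of like level, whose median SD was 0.073. Excess over background was 1.82 ± 0.067 (SE), with a limma adjusted p of 1.13e-10.

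The effectors came next. Gli1, a transcriptional activator and a direct target of the pathway, had log2 intensities of 7.60, 7.57, 7.66, 7.67, 7.55 and 7.42 in replicates 2, 4, 5, 6, 7 and 8. Replicate 8 was lowest and replicates 5 and 6 highest, a span of 1.19-fold. The mean of 7.58 ± 0.091 (SD, n = 6) was matched or exceeded by 36 Olfr genes, and 36.7% of all genes were lower. It was above the background of the same array in 5 of 6 arrays, with an excess of 0.088 ± 0.046 (SE) and a limma adjusted p of 0.0861. The excess passed the limma test with quantile normalization (adjusted p 0.0337) and with background taken from all chemoreceptor genes (adjusted p 0.0153), at 0.086 and 0.13.

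Gli2, the main activator of the initial response, had log2 intensities of 7.44, 7.62, 7.73, 7.65, 7.57 and 7.31 in replicates 2, 4, 5, 6, 7 and 8. Replicate 5 was highest and replicate 8 lowest, a span of 1.34-fold. The mean was 7.55 ± 0.15 (SD, n = 6), and 4 of 6 arrays were above their own background. Its excess was 0.066 ± 0.048 (SE), with a limma adjusted p of 0.203, or 0.0401 with background from all chemoreceptor genes. Gli1 and Gli2 were both lowest in replicate 8, the array with the lowest Olfr percentile. At 7.42 and 7.31 they were still above the background of that array, 7.26. The part of that lower background in their values was not tested.

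Gli3, processed into the main repressor when signal is absent, had log2 intensities of 7.73, 7.87, 7.84, 7.82, 7.68 and 7.82 in replicates 2, 4, 5, 6, 7 and 8. Replicate 4 was highest and replicate 7 lowest. The mean of 7.79 ± 0.073 (SD, n = 6) was above background in 6 of 6 arrays, by 0.31 ± 0.063 (SE) with a limma adjusted p of 0.00062. With background at the 99th percentile of Olfr genes, the mean of each Gli gene was lower than background, Gli3 by 0.58, Gli1 by 0.79 and Gli2 by 0.82 on the log2 scale, and 0 of 6 arrays of any of them was above that level. The Gli genes thus lay within the upper range of olfactory receptor genes, with 26 to 38 of these at or above each of them.

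Regulators that act between Smo and the Gli proteins were on a list of 15 genes, and all 15 had a mean above background and passed the limma test. Over all genes, these shares were 65.2% and 62.6%. The highest intensities were those of the kinases Gsk3b at 11.92 ± 0.040 and Csnk1a1 at 11.65 ± 0.029, which phosphorylate Gli proteins, and of Cul3 at 11.17 ± 0.030, a ubiquitin ligase scaffold (SD, n = 6). These 3 act in many other pathways. Sufu, which holds Gli proteins in the cytoplasm, was at 9.43 ± 0.035, and Kif7, a ciliary kinesin that governs Gli processing, at 7.80 ± 0.12. Evc2, a ciliary partner of Smo, had the largest SD, at 8.47 ± 0.17. Over the 3 lists of ligands, receptors and regulators, 25 of 27 matched genes were above background, compared with 65.2% of the table.

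The floor plate members were both far above background. Foxa2, the forkhead factor that specifies the floor plate and also marks endoderm and notochord, had log2 intensities of 10.52, 10.49, 10.41, 10.50, 10.64 and 10.62 in replicates 2, 4, 5, 6, 7 and 8. Replicates 7 and 8 were high and replicate 5 low, a span of 1.18-fold. The mean was 10.53 ± 0.089 (SD, n = 6), with an excess over background of 3.04 ± 0.066 (SE) and a limma adjusted p of 1.37e-12.

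Spon1, which encodes the secreted matrix protein F-spondin of the floor plate, had log2 intensities of 12.57, 12.54, 12.51, 12.64, 12.71 and 12.60 in replicates 2, 4, 5, 6, 7 and 8. As for Foxa2, replicate 7 was highest and replicate 5 lowest. Its mean of 12.60 ± 0.071 (SD, n = 6) was above 99.4% of all genes, with an excess over background of 5.11 ± 0.057 (SE) and a limma adjusted p of 2.52e-14.

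A further list of 12 floor plate genes had all 12 means above background and also above the 99th percentile of Olfr genes, and all 12 passed the limma test. Over all genes, these shares were 65.2%, 48.6% and 62.6%. Their median level was 11.89, compared with 8.26 over all genes. The highest were Slit2 at 12.70 ± 0.034, Vtn at 12.61 ± 0.067 and Slit1 at 12.56 ± 0.024 (SD, n = 6). Slit proteins repel commissural axons from the midline, and Vtn encodes vitronectin. Ntn1, the attractant netrin of the same cells, was at 11.76 ± 0.031, and the forkhead gene Foxa1 at 11.00 ± 0.055. Foxj1, a ciliogenesis factor of floor plate cells, had the largest SD, at 8.77 ± 0.12. Slit genes are also expressed by motor neurons, so they do not mark the floor plate alone. Whether the other genes of this list mark the floor plate alone was not examined.

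Foxa2 and Shh are also expressed in notochord and endoderm, so markers of these tissues were read, against a share of 65.2% of all genes above background. The notochord list held 5 genes, which included Tbx6, a gene of presomitic mesoderm. Of these, 3 were above background, namely Nog at 8.51 ± 0.042, T at 8.37 ± 0.19 and Chrd at 8.14 ± 0.13 (SD, n = 6). Noto at 6.51 ± 0.16 and Tbx6 at 7.02 ± 0.093 were not. The 99th percentile of Olfr genes was exceeded by 2 of the 5, against 48.6% of all genes. Of 7 matched endoderm genes, 3 were above background. These were Apoa1 at 8.67 ± 0.20, Gata6 at 8.07 ± 0.11 and Gata4 at 7.85 ± 0.12 (SD, n = 6). Sox17 at 6.74 ± 0.15, Foxa3 at 7.32 ± 0.19, Afp at 6.07 ± 0.16 and Ttr at 7.25 ± 0.28 were below it. The mean over the notochord list ranged from 7.54 to 7.84 and that over the endoderm list from 7.13 to 7.55 among arrays, both lowest in replicate 8. Over the 12 floor plate genes it ranged from 11.07 to 11.17.

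Genes of the roof plate and dorsal spinal cord served as markers of the opposite pole. Of 7 matched, 4 had a mean above background and 3 passed the limma test, against 65.2% and 62.6% of all genes. Gdf7, a roof plate signal, was at 9.88 ± 0.14, Lmx1a at 7.92 ± 0.17 and Wnt3a at 7.76 ± 0.14, while Msx1 at 7.58 ± 0.21 did not pass, with an adjusted p of 0.133 (SD, n = 6). Msx2 at 6.05 ± 0.18, Wnt1 at 6.82 ± 0.17 and Atoh1 at 6.96 ± 0.20 were below background. All 7 motor neuron genes were above background and passed, with Isl1 at 10.33 ± 0.12, Lhx4 at 10.04 ± 0.088 and Mnx1 at 8.48 ± 0.18 (SD, n = 6).

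Ventral progenitor genes induced by Hedgehog signal were on a list of 5, and all 5 were above background and passed the limma test. Nkx2-2 at 10.77 ± 0.097 and Nkx2-9 at 10.60 ± 0.19 mark the domain next to the floor plate, and Nkx6-1 at 10.55 ± 0.081 spans the ventral domains (SD, n = 6). The lowest array for Nkx2-9 was replicate 2, at 10.31, and the highest was replicate 4, at 10.80. Of the 6 progenitor genes that the signal represses, 4 were above background and passed, a share close to the 65.2% and 62.6% of all genes. Irx3 was at 8.56 ± 0.089, Dbx1 at 8.05 ± 0.11 and Dbx2 at 7.87 ± 0.16, while Pax3 at 6.75 ± 0.19 and Pax6 at 6.89 ± 0.10 were not above background (SD, n = 6). The median level was 10.55 for the induced list and 7.74 for the repressed list. The 99th percentile of Olfr genes was exceeded by 5 of 5 induced and 1 of 6 repressed genes, where 48.6% of all genes exceeded it. The lists were read with different probes, and the difference between them was not tested.

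Among 5 matched genes that the pathway is known to induce in other settings, 4 were above background, against 65.2% of all genes. Ccnd2 and Ccnd1, cyclins of the early cell cycle, were at 11.63 ± 0.13 and 9.85 ± 0.091, and Mycn, a growth regulator of neural progenitors, at 9.36 ± 0.13 (SD, n = 6). Foxf1, a target in gut mesenchyme, was at 6.05 ± 0.14, below background.

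**Figure D2:**
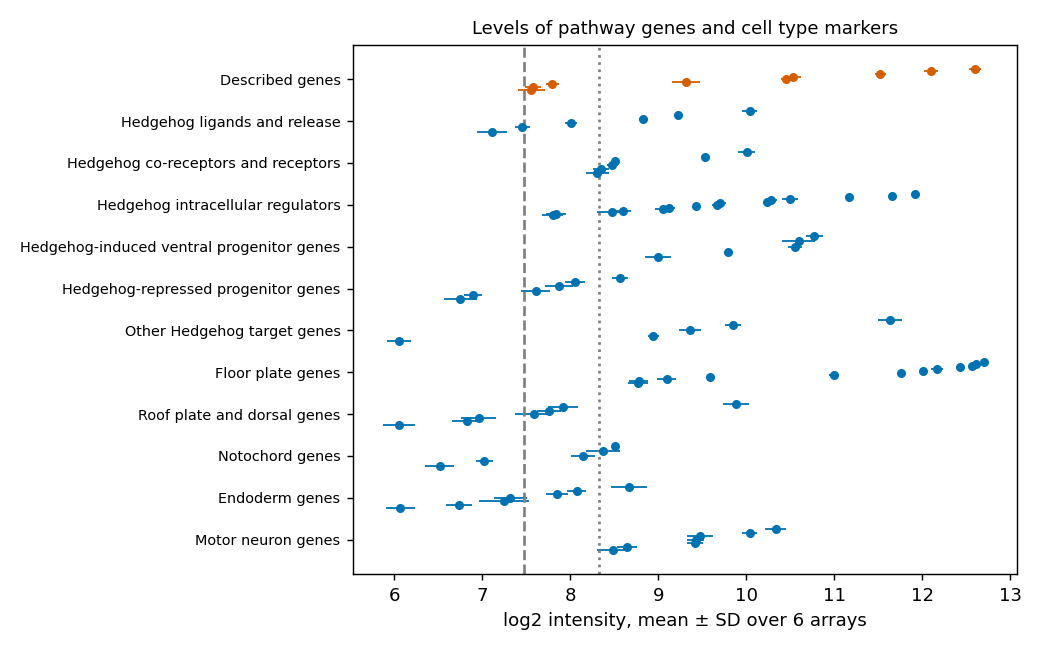
Mean log2 intensity ± SD over 6 arrays (horizontal axis) of the 9 described genes (orange) and of the genes of 11 lists (blue), 1 point a gene. Dashed and dotted lines are the 95th and 99th percentiles of olfactory receptor genes, at 7.47 and 8.33; all 12 floor plate and all 5 Hedgehog-induced progenitor genes lie to the right of both lines.

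The spread between arrays was then set against that of other genes. The median SD of the 9 members was 0.080, compared with 0.076 over the 12793 genes above background. The SD was above the median of genes of like level in 6 of 9 members. Hhip stood at the 93.3rd percentile of its level, Foxa2 at the 79.5th and Shh at the 76.2nd, while Gli1 stood at the 22.7th and Gli3 at the 15.6th. The coefficient of variation on the linear scale ranged from 3.51% for Smo to 11.3% for Hhip.

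**Figure D3:**
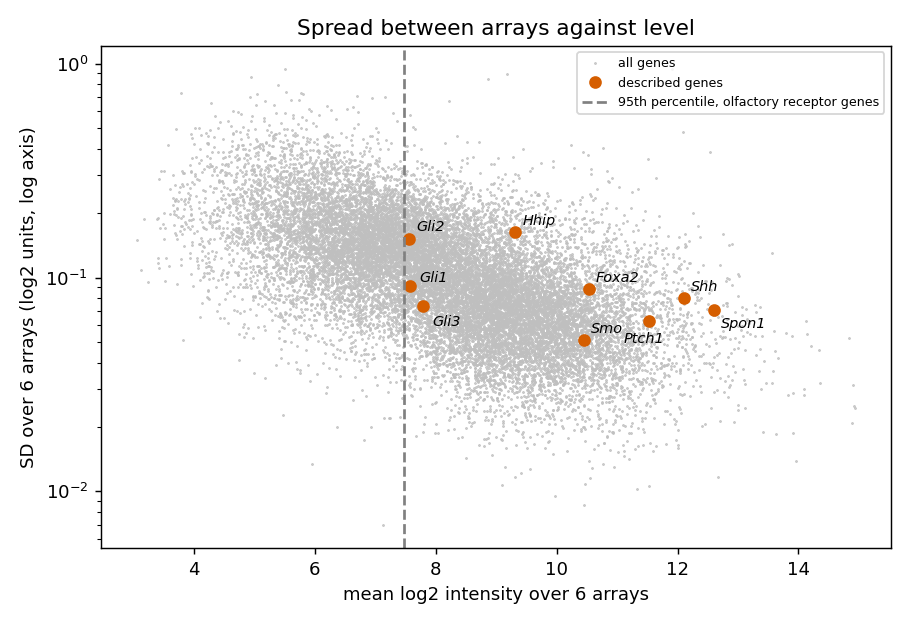
SD of log2 intensity over 6 arrays (vertical log axis) against mean log2 intensity (horizontal axis) for all genes (grey) and the 9 described genes (orange). The dashed line is the 95th percentile of olfactory receptor genes, at 7.47; Hhip lies high among genes of its level with an SD of 0.16, and Smo has the lowest SD of the 9 genes, at 0.051.

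The extreme arrays differed between members. Replicate 4 was highest for 3 members, Ptch1, Hhip and Gli3, and replicate 7 was lowest for the same 3. Replicate 8 was highest for 1 member and lowest for 2, while over all genes above background it was highest for 27.5% and lowest for 26.4%. Shh and Smo were lowest in replicate 2, by 0.11 and 0.068 from their means.

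**Figure D4:**
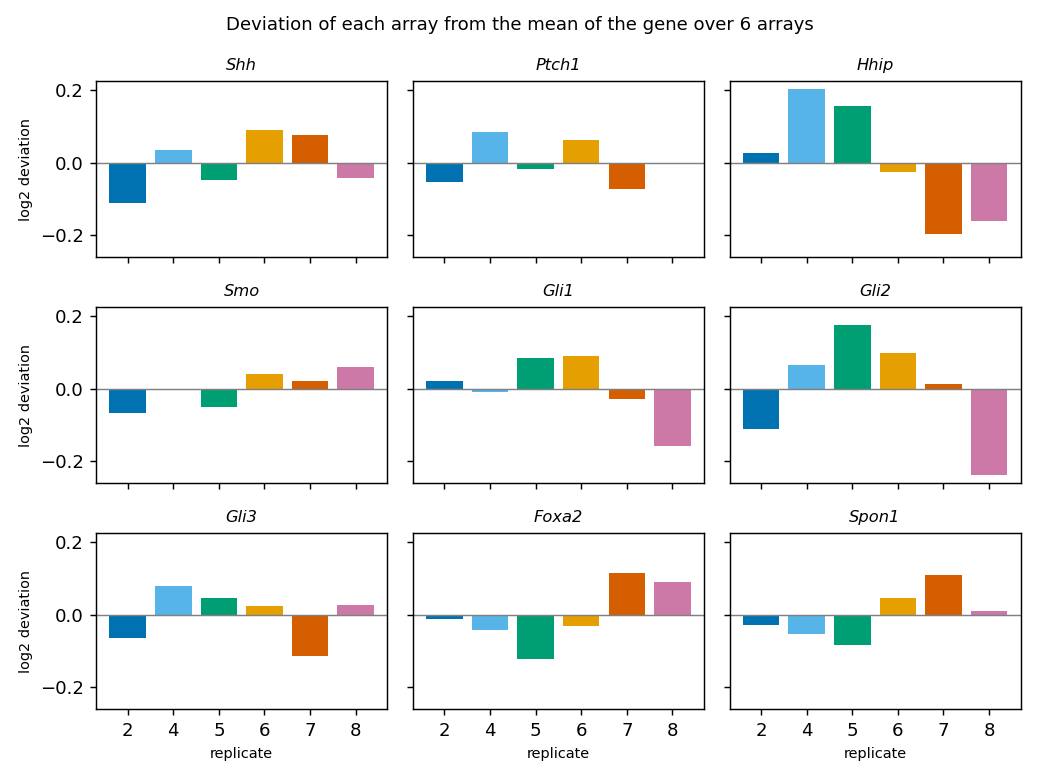
Deviation of each array from the mean of the gene over 6 arrays (vertical axis, log2 units) by replicate (horizontal axis), 1 panel for each of the 9 genes. Hhip deviates from 0.20 in replicate 4 to -0.20 in replicate 7, while Foxa2 and Spon1 are highest in replicate 7 and lowest in replicate 5.

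Whether members of like role deviated together was tested in 8 pairs over the 6 arrays. Pearson's r was positive in 8 of 8 pairs, from 0.15 to 0.79, against 22 of all 36 pairs of members. The 8 pairs share genes, so their signs are not independent. After Benjamini-Hochberg adjustment, 0 of the 8 passed a two-sided exact permutation test. None of the 8 had an unadjusted p under 0.05, by Pearson's r or by Spearman's rho. The smallest adjusted p that a lone pair can reach with 6 arrays is 0.0222, so a moderate relation can go undetected. The highest r was that of Foxa2 with Spon1, at 0.79 (exact p 0.0694, adjusted 0.556) with a rho of 0.83 (exact p 0.0583, adjusted 0.467). After the 2 arrays most distant from the median Foxa2 level were left out, r was 0.63. For Shh with Spon1, r was 0.63 (exact p 0.169, adjusted 0.589) and rho 0.66 (exact p 0.175, adjusted 0.70), with an r of 0.66 once the 2 arrays most distant in Shh were left out. For Foxa2 with Shh, r was 0.23 (exact p 0.631, adjusted 0.721) and rho 0.20 (exact p 0.714, adjusted 0.714). The r of this pair was 0.077 without the 2 arrays most distant in Foxa2, and 0.46 without the 2 most distant in Shh.

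Feedback targets did not pass either. Gli1 lay close to background, and the part of background signal in its correlations was not tested. For Gli1 with Hhip, r was 0.55 (exact p 0.253, adjusted 0.589) and rho 0.43 (exact p 0.419, adjusted 0.714). The r of this pair was 0.54 without the 2 arrays most distant in Gli1, and 0.81 without the 2 most distant in Hhip. For Ptch1 with Hhip, r was 0.52 (exact p 0.294, adjusted 0.589) and rho 0.54 (exact p 0.297, adjusted 0.714), and r fell to 0.26 with the 2 arrays most distant in Ptch1 left out. For Gli1 with Ptch1, r was 0.15 (exact p 0.808, adjusted 0.808) and rho 0.20 (exact p 0.714, adjusted 0.714). The sign of r turned without the 2 arrays most distant in Gli1, to -0.026, and without the 2 most distant in Ptch1, to -0.32. The remaining pairs were Gli2 with Gli3 at an r of 0.27 and Ptch1 with Smo at 0.32, both with an exact permutation p adjusted to 0.721.

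All 36 pairs of members were examined afterwards, with values in view. Of these, 0 passed after adjustment by the exact permutation test and 3 had an unadjusted p under 0.05, and a lone pair among 36 cannot reach an adjusted p below 0.10. Hhip and Foxa2 had an r of -0.89 (exact p 0.0306, adjusted 0.433) and a rho of -0.89 (exact p 0.0333, adjusted 0.411), with an r of -0.97 once the 2 arrays most distant in Hhip were left out. Hhip and Spon1 had an r of -0.86 (exact p 0.0361, adjusted 0.433) and a rho of -0.89 (exact p 0.0333, adjusted 0.411), and -0.77 once those arrays were left out. Ptch1 and Gli3 had an r of 0.84 (exact p 0.0306, adjusted 0.433) and a rho of 0.77 (exact p 0.103, adjusted 0.411), with an r of 0.95 once the 2 arrays most distant in Ptch1 were left out.

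Genes with the array pattern most like that of Shh were Mad2l1 at an r of 0.995, Armc6 at 0.991 and Rundc1 at 0.989 over the 6 arrays. For Gli1 they were Pus1 at an r of 0.997, Cc2d1a at 0.993 and Mfsd4 at 0.992. These were the highest of 12792 genes above background. An r over 0.95 was held by 20 of them with Shh (0.156%) and by 90 with Gli1 (0.704%). With 6 arrays and this many genes, high values of r can arise by chance. The share that chance gives was not computed. Points share arrays and their normalization, and the values are descriptions of these 6 arrays. Gli1 lay close to background and did not pass the main limma test. The part of background signal in its array pattern was not tested.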

How the data were processed

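RNA from 6 cultures was hybridised to Affymetrix mouse exon arrays. The deposited values are linear intensities, 1 per gene and array. The labels name Affymetrix Expression Console and RMA. The methods state that the authors used Robust Multi-array Averaging in Aroma Affymetrix and took the average over the exons of each gene (annotation release 33). The methods describe a Grubbs' test on the arrays of each batch with removal of outliers, so these arrays may already have been screened. The genome build is not given in the sources used here.

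Intensities were transformed to log2 with a pseudocount of 0. The table held 0 columns of other samples. Background was the 95th percentile of 1032 Olfr genes. The excess over background was tested with limma 3.58.1 in R 4.3.3 (intercept, eBayes, two-sided, Benjamini-Hochberg, threshold 0.05), which was checked on data with known differences. Pairs were tested over all 720 pairings with scipy 1.17.1. Genes of like level were those of the same of 20 bins by mean. Of 85 list genes, 81 were matched by symbol or synonym, and Disp1, Bcl2, Bmp6 and Cxcr4 were not analysed here. Members, pairs and lists were chosen with earlier results of these data known. The text names all 9 members and, from each list, genes not above background, the 3 highest, the gene with the largest SD, the 3 genes most like Shh and Gli1 and, chosen after their values were seen, Hhat, Sufu, Kif7, Ntn1 and Foxa1. Some genes that this rule names are not reported here. Cultures are not stated to be independent, so p-values measure the spread between arrays, which may be technical, and the number of arrays limits the precision.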

Additional observations from a re-analysis of the deposited data

Results flagged for a closer look

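Among 61 named genes, 3 had an extreme array that lay unusually far away, none of them a member. Chance alone gives about 3.05 for genes chosen without regard to spread. The gene with the largest SD of each list was among the 61, so this number is a rough guide only. The ratio below is the distance between the extreme value and the next, divided by the span of all 6 arrays. Gdf7 had a log2 intensity of 9.60 in replicate 8 and 9.90 to 9.996 in the other arrays, a ratio of 0.75. Ttr had 6.71 in replicate 8 and 7.23 to 7.50 in the others, a ratio of 0.66, and was above the background of the same array in 0 of 6 arrays. Ccnd2 had 11.88 in replicate 5 and 11.52 to 11.66 in the others, a ratio of 0.63. Replicate 8 also had the lowest 95th percentile of Olfr genes, at 7.26, and its part in the values of Gdf7 and Ttr was not tested.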

How the results depend on the processing

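The count of members above background by limma was 7, and it was 6 with background at the 99th percentile of Olfr genes, 9 with background from all chemoreceptor genes, and 8 with quantile normalization. The count by mean was 9, and 6 at the 99th percentile. At that percentile the excess was -0.79 for Gli1, -0.82 for Gli2 and -0.58 for Gli3, and the lists of repressed progenitor, roof plate and endoderm genes had 1 gene each above background. Under median centring the r of Gli1 with Ptch1 was -0.0998. Leaving out each array in turn, it ranged from -0.10 to 0.27, below 0 without replicate 6, and the r of Foxa2 with Shh from -0.11 to 0.42, below 0 without replicate 7. Of the 8 fixed pairs, 0 passed under any alternative run. With 5 arrays a lone pair cannot pass the exact test after adjustment, since its adjusted p cannot fall below 0.13. The count of 0 in the runs without 1 array therefore says little about these pairs. The calls of the limma test for Shh, Ptch1, Smo, Hhip, Foxa2 and Spon1 were the same under the alternatives run. Intensity over background limits the Gli genes. No paired analysis was possible because the labels give 1 group. The test of all pairs was added after seeing the data.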
